A study of Mus musculus with 2 samples.

Results

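Mettl3 is the catalytic subunit of the enzyme complex that methylates adenosine at N6 in mRNA, and the positions described here are those at which 3 tools that set wild-type (WT) reads against Mettl3 knockout (KO) reads called the same adenosine. They were chosen by their presence, at the same chromosome, base and strand, in the Nanocompore, DiffErr and DRUMMER lists, and 519 positions in 384 genes met that rule. In all, 17 lists from 10 tools held 160430 positions, so the agreed positions were 0.324% of everything listed. A further 922 positions were in exactly 2 of the 3 comparison lists and 1725 were in exactly 1.

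The study sequenced native poly(A) RNA from mouse 129 embryonic stem cells (mESCs) by nanopore direct RNA sequencing, in which the strand itself passes the pore and a modified base can shift the current or the base call. Both groups were of this cell type, WT and Mettl3 KO. The KO line lacks Mettl3 exons 5 to 7 on both alleles: genome editing with Cas9 put drug resistance cassettes (puromycin, hygromycin) in their place, and colonies were picked under both drugs. There was 1 library of each and no replicate, so no test between conditions was possible and every value below is a description of this pair of libraries. The files held positions without a score, read number or methylation level, and the depth behind a position is unknown. Intervals in brackets are 95% Wilson intervals, the limit given for a count of 0 is 3 counts of the total, and both cover counting error only; neighbouring positions of 1 gene share reads.

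The lists were first read against the cell labels. In Mettl3 itself, exons 1 to 7 held 9 positions in WT lists and 0 in KO lists, the replaced exons 5 to 7 held 2 and 0, and exons 8 to 11 held 4 and 5. A count of 0 here says only that no tool listed a position. Mettl3 had no position in the comparison lists. Positions in WT and KO lists were present in all 8 stem cell markers examined, with 25 and 25 in Pou5f1, 37 and 35 in Nanog, 50 and 38 in Esrrb, 34 and 20 in Tdgf1 and 32 and 15 in Klf4. Col1a2, Postn, Gata6, Gata4 and T, markers of fibroblasts or of differentiated lineages, had none in either condition. Thy1 had 3 and 1, Col1a1 0 and 3, and Sox17, an endoderm marker, had 12 in WT lists and 0 in KO lists. None of these 8 markers of other cells had an agreed position.

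By way of background, N6-methyladenosine (m6A) is placed co-transcriptionally by Mettl3 together with Mettl14 within the consensus DRACH (D is A, G or T; R is A or G; H is A, C or T). In mammalian mRNA it is found mainly around stop codons, in 3′ UTRs and in long internal exons, and exon junction complexes keep it away from splice junctions in short exons. YTH-domain proteins read the mark, and in embryonic stem cells it marks transcripts of pluripotency factors for turnover.

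The sequences of the agreed positions shared a narrow core. In each sequence printed here the 5-mer centred on the called adenosine is in capitals, the 8 bases on either side are in lower case, and the strand is that of the mRNA (genome GRCm38, 5′ to 3′). The first set holds the 9 positions listed by all 7 tools in WT and by none of these tools in KO, the most one-sided support found.
Nif3l1, 3′ UTR, chr1:58461429, plus strand: gctgtattGGACTtctcattt
Ythdf1, coding, chr2:180910937, minus strand: tggtctcaGGACAagtggaag
Klf4, coding, chr4:55530493, minus strand: ccggagttGGACCcagtatac
Aars, 3′ UTR, chr8:111057482, plus strand: taggagatGGACCcagtgcag
Med7, coding, chr11:46441217, plus strand: cacagaagGGACCagattata
Tmed10, 3′ UTR, chr12:85343229, minus strand: taggatttGGACTggttttgc
Setd3, coding, chr12:108107396, minus strand: cctcacagAGACTgtcagcaa
Gemin6, coding, chr17:80227985, plus strand: tgcacaaaGGACTctctgtgt
Cox7a2l, 3′ UTR, chr17:83502587, minus strand: cctgtggaGGACTggttcact

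The second set holds the 8 agreed positions of Msh6, the gene with the most. All lie in its exon 4, and they show that 1 exon can carry 4 different 5-mers.
Msh6, chr17:87984745, plus strand: ctcagggtGGACTtagaagga
Msh6, chr17:87984898, plus strand: acagtagtGGACCcactgttt
Msh6, chr17:87985460, plus strand: ggaggaagAGACTtctggtca
Msh6, chr17:87985500, plus strand: tgctttgtGGACActtcactg
Msh6, chr17:87986078, plus strand: tactgaagGGACCctgctaga
Msh6, chr17:87986584, plus strand: ggaagaccGGACTcatcactc
Msh6, chr17:87986901, plus strand: tccttaaaGGACTgcatgcgg
Msh6, chr17:87986946, plus strand: aaccacaaGGACTggcagtct

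The third set holds positions in internal exons of at most 400 nt of housekeeping genes, chosen after their values were seen because they differ from the other sets in list support and place, as given further on.
Rps25, chr9:44409955, plus strand: tctccttaGGACTtatcaagc
Rps2, chr17:24720720, plus strand: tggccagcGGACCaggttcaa
Eef2, chr10:81178223, plus strand: gtggtggtGGACTgtgtgtct
Rpl27a, chr7:109520562, plus strand: taaactgtGGACAttggtcag
Hsp90aa1, chr12:110692860, minus strand: gagaccaaGGACCaggttgct

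The windows are genomic, and for 3 of the 519 positions (in Rps25, Rps21 and Fbxo5) the spliced mRNA carries other bases because an exon junction falls inside the window. In Rps25 the first 9 bases shown, the first G of the 5-mer included, are intron, and the spliced window, whose 5-mer is also GGACT, reads as follows.
Rps25, spliced: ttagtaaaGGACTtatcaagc

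All 519 positions were in the RRACH context to which the study restricted its sites, so the context itself was given by the processing. Of its 12 5-mers, GGACT was found at 197 positions (38.0%), GGACA at 126 (24.3%), AGACT at 98 (18.9%) and GGACC at 75 (14.5%). These 4, the only 5-mers that MINES reports, covered 496 positions or 95.6% (93.4 to 97), against 91.2% of positions in exactly 2 comparison lists, 75.9% of those in exactly 1 and 34.5% of all RRACH positions on the same transcripts. Current and base-call signals depend on the 5-mer, so the motif is not independent of the rule.

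AGACA had 14 positions, AGACC 6, GAACT 2 and AAACC 1. An A directly before the called adenosine was therefore present at 3 positions (0.578%), whereas 47.8% of the RRACH positions on the same transcripts had it. The other 4 5-mers with an A there each had 0 of 519 positions, which allows a share of up to 0.578%. The 2 GAACT positions were in Rpl5 and Rps21, both ribosomal protein genes, and the AAACC position was in the mitochondrial mt-Co3. Per 1000 positions of the same 5-mer on the same transcripts, 175 GGACT, 99.0 GGACA, 86.0 AGACT and 66 GGACC were agreed positions, and 11.1 AGACA.

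The bases outside the 5-mer also differed from the background. The base 4 before the called adenosine was A at 52.0% of agreed positions and at 28.6% of RRACH positions of the same transcripts, and the base 4 after it was T at 42.0% against 25%. For A the shares were 35.5% (29.2 to 42.4) against 24.1% (21.7 to 26.7) among GGACT positions alone and 62.1% against 29.0% among the other 5-mers. For T they were 37.1% (30.6 to 44) against 28.8% (26.2 to 31.5) among GGACT positions, intervals that overlap, and 45.0% against 24.7% among the others. Only the comparison among GGACT positions is matched for 5-mer. Over all 5-mers and among the others, agreed and RRACH positions differ in 5-mer make-up, so flanking base and 5-mer cannot be told apart there. The difference of most percentage points among GGACT positions was in G directly before the 5-mer, at 10.2% (6.67 to 15.2) of agreed and 25.4% (23 to 28.1) of all GGACT positions, whereas over all 5-mers this G was at 27.2% of both. A G directly after the 5-mer followed 45.7% of agreed GGACT positions and 32.9% of all of them, and the base 4 after the adenosine was C at 13.2% against 25.6%.

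The comparison tools differed in the 5-mers they listed. AGACT made up 29.7% of the 1264 positions listed by Nanocompore alone and 7.86% of the 598 listed by DiffErr and DRUMMER without Nanocompore, with 18.9% at agreed positions between them. GGACA went the other way, with 9.02% and 34.1%. Nanocompore reads the current, while DiffErr and DRUMMER both read base-calling errors, so the latter pair share their signal.

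Agreed positions lay close to stop codons. Of the 515 on annotated coding transcripts, 302 or 58.6% (54.3 to 62.8) lay no more than 200 nt from the stop codon, counted from its first base, against 18.8% of the 13478 RRACH positions on the same 382 transcripts. The share was 52.9% for positions in exactly 2 comparison lists and 48.8% for those in exactly 1. The median agreed position was 45 nt after the start of the stop codon, and the quartiles ran from 95 nt before to 180 nt after it.

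**Figure D1:**
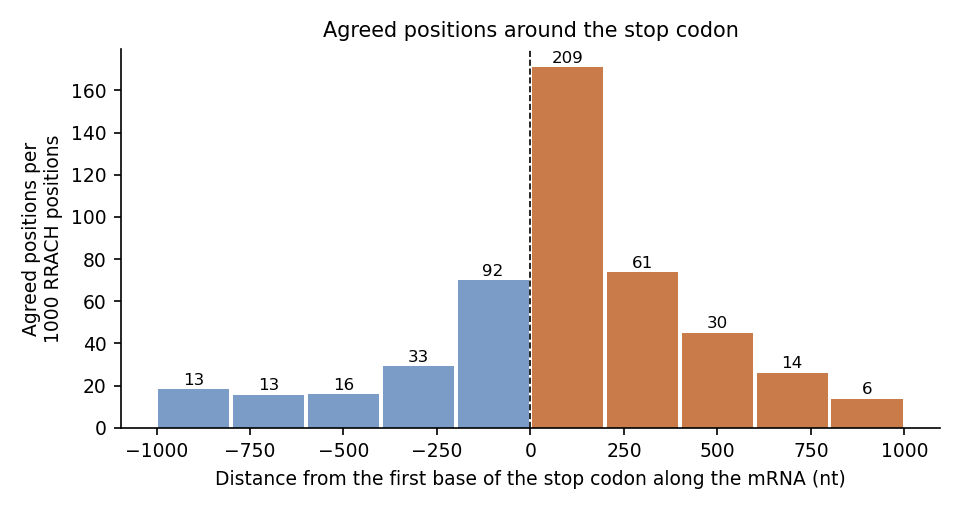
Agreed positions per 1000 RRACH positions of the same transcripts (vertical axis) in bins of 200 nt of distance from the stop codon along the mRNA (horizontal axis), blue before and orange after the stop codon, with the number of agreed positions above each bar. The bin just after the stop codon reaches 171 per 1000, the bin just before it 70.2, bins farther downstream decline to 13.9, and the 3 bins more than 400 nt upstream lie between 15.8 and 18.4.

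The rate was highest just downstream. In the 200 nt from the stop codon 209 of 1222 RRACH positions were agreed (171 per 1000), and in the 200 nt before it 92 of 1311 (70.2 per 1000). It fell to 13.9 per 1000 at 800 to 1000 nt downstream and was 15.9 per 1000 at 400 to 600 nt upstream, as the plot around the stop codon shows. Several positions touched the stop codon region itself, among them Ube2l3 (ubiquitin-conjugating enzyme) and Psmb1 (proteasome subunit), each 2 nt before it, Utf1 at 11 nt before, and Tomm7 (outer mitochondrial membrane translocase) at 6 nt after.

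By region, 323 positions (62.7%) were in 3′ UTRs, 190 (36.9%) in coding sequence and 2 (0.388%) in 5′ UTRs, against 45.1%, 49.9% and 5.06% of the RRACH positions. Within the exons that held an agreed position the RRACH shares were 73.9% in 3′ UTRs and 24.6% in coding sequence, so the direction of both differences turned. The 3′ UTR positions crowded near its start. Their median distance from the stop codon was 137 nt, compared with 714 nt for RRACH positions in the 3′ UTRs of the same transcripts. Beyond 1000 nt there were 3 of 323 (0.929%, 0.316 to 2.69), against 39.4% of those RRACH positions, or 12.7% when only those in a WT list were counted. These were in Aars (alanyl-tRNA synthetase) at 2280 nt, Sfxn1 (a mitochondrial serine carrier) at 1211 nt and Txndc5 (an endoplasmic reticulum disulfide isomerase) at 1086 nt. Smyd5 at 935 nt and Mrfap1 at 892 nt came next. Positions in exactly 2 and exactly 1 comparison list were beyond 1000 nt at 3.4% and 5.29% of their 3′ UTR positions.

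More than 1000 nt before the stop codon there were 25 positions in 18 genes, of which 6 were in Msh6. Of the 5 farthest, 4 were in Msh6, from 2393 to 3148 nt before the stop codon, and the other was in Nid2, a basement membrane protein, 3041 nt before it. The 2 positions in 5′ UTRs were both on single-exon mRNAs. They were in Gtsf1l and in Pcbp1, a poly(C)-binding protein that also had a coding position.

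Last exons held 417 of the 515 positions, 81.0% (77.4 to 84.1), against 54.0% of the RRACH positions of the same transcripts, and internal exons held 64 (12.4%) against 37.4%. Single-exon transcripts contributed 27 positions and first exons 7, of which 1 was in Pou5f1. Of the 190 coding positions, 62.6% were in a last or single exon, against 21.5% of coding RRACH positions. When only the RRACH positions of exons with an agreed position were taken as background, 26.1% of them were within 200 nt of the stop codon. Of these RRACH positions 89% were in last exons and 5.97% in internal exons, so the direction of both comparisons turned. Of the coding ones 73.9% were in a last or single exon, and that comparison turned as well.

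Long internal exons stood out from short ones. Agreed positions were found at 3.50 per 1000 RRACH positions in internal exons over 100 and up to 200 nt, at 14.8 in those over 200 and up to 400 nt and at 76.4 in those over 400 and up to 1000 nt. Of the 64 internal positions 38, or 59.4% (47.1 to 70.5), were in exons over 400 nt, against 9.95% of internal RRACH positions on the same transcripts, and the median exon was 490 nt long against 150 nt on the same transcripts. Msh6 alone gave 8 of the 38. Without it the share was 53.6%. The share was 45.0% for positions in exactly 2 comparison lists and 33.8% for those in exactly 1. Within the exons that held an agreed position, 77.7% of internal RRACH positions were in exons over 400 nt, and the median exon was 672 nt long. Against this background the direction of both comparisons turned.

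**Figure D2:**
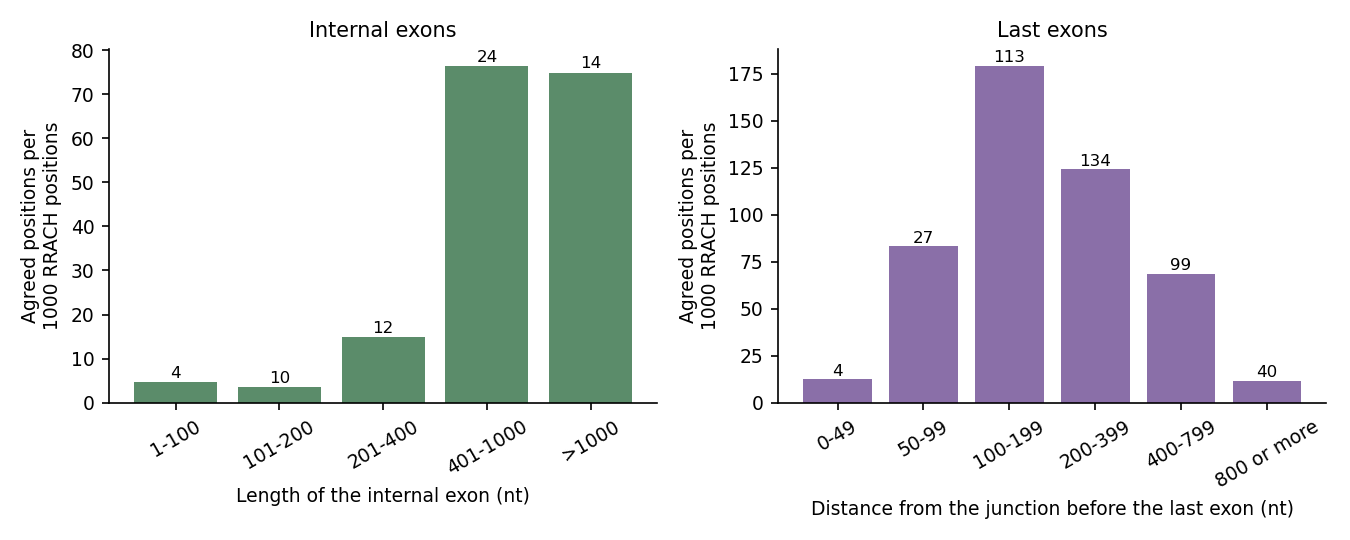
Agreed positions per 1000 RRACH positions of the same transcripts, by length of the internal exon in nt (left) and by distance in nt from the junction before the last exon (right), with the number of agreed positions above each bar. Internal exons over 400 nt reach 76.4 and 74.9 per 1000 and shorter ones at most 14.8, and last exons peak at 179 per 1000 between 100 and 199 nt from the junction.

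Positions close to splice junctions made up a smaller share of agreed positions than of RRACH positions on the same transcripts. Of 488 positions on spliced coding transcripts, 67 or 13.7% (11 to 17.1) were within 100 nt of an exon junction, against 42.3% of RRACH positions. For positions in exactly 2 comparison lists the share was 10.9%, and for those in exactly 1 it was 19.2%. In last exons the rate was 12.4 per 1000 within 50 nt of the junction, 83.1 at 50 to 99 nt and 179 at 100 to 199 nt, and it fell to 11.5 beyond 800 nt. Stop codons often lie near the start of the last exon, so the distance from the junction and the distance from the stop codon cannot be told apart there. In internal exons it was 5.66 per 1000 within 50 nt and 115 at 300 to 399 nt.

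Within the exons that held an agreed position, 10.8% of RRACH positions were within 100 nt of a junction, slightly below the 13.7% of agreed positions. Among internal exons alone, 51.6% (39.6 to 63.4) of agreed positions were that close, against 90.1% of all internal RRACH positions on the same transcripts and 38.9% of those in the same exons.

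Of the 5 agreed positions nearest a junction, 4 were in few WT lists. Rps25 (the third sequence set) lay 1 nt from a junction, and 1 of 7 WT lists and 1 of 7 KO lists held it. Rps21 lay 2 nt from a junction, with 2 and 2 lists, Eef2 lay 11 nt away with 2 and 2, and Rps2 11 nt away with 3 and 1. Fbxo5, which encodes the anaphase-promoting complex inhibitor Emi1, was the exception at 9 nt, held by 6 WT lists and 0 KO lists, in an exon of 664 nt.

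List support thus differed with exon length, a measure that the rule did not use. Of the 26 agreed positions in internal exons of at most 400 nt, ELIGOS listed 3 in WT (11.5%, 4 to 29), against 32 of 38 (84.2%) in longer internal exons and 334 of 417 (80.1%) in last exons. In KO, Nanom6A listed 25 of the 26, against 12 of 38 and 239 of 417. The median number of WT lists was 2.5 for short internal exons (4 without ribosomal protein genes) and 5 for both other classes. ELIGOS reads errors against a model of unmodified RNA and Nanom6A classifies single reads by their current, each from 1 library.

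The 26 positions were in 22 genes. They included 9 ribosomal protein genes, the elongation factors Eef1a1, Eef1d and Eef2, the chaperones Hsp90aa1 (3 positions) and Hsp90ab1, cofilin (Cfl1), nucleolin (Ncl), pyruvate kinase (Pkm), Mcl1 and Mcm7. Without the ribosomal protein genes ELIGOS listed 3 of 17 in WT (17.6%) and Nanom6A 16 of 17 in KO, while the m6Anet WT share rose from 57.7% to 82.4%. The files give no read depth for these genes.

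**Figure D3:**
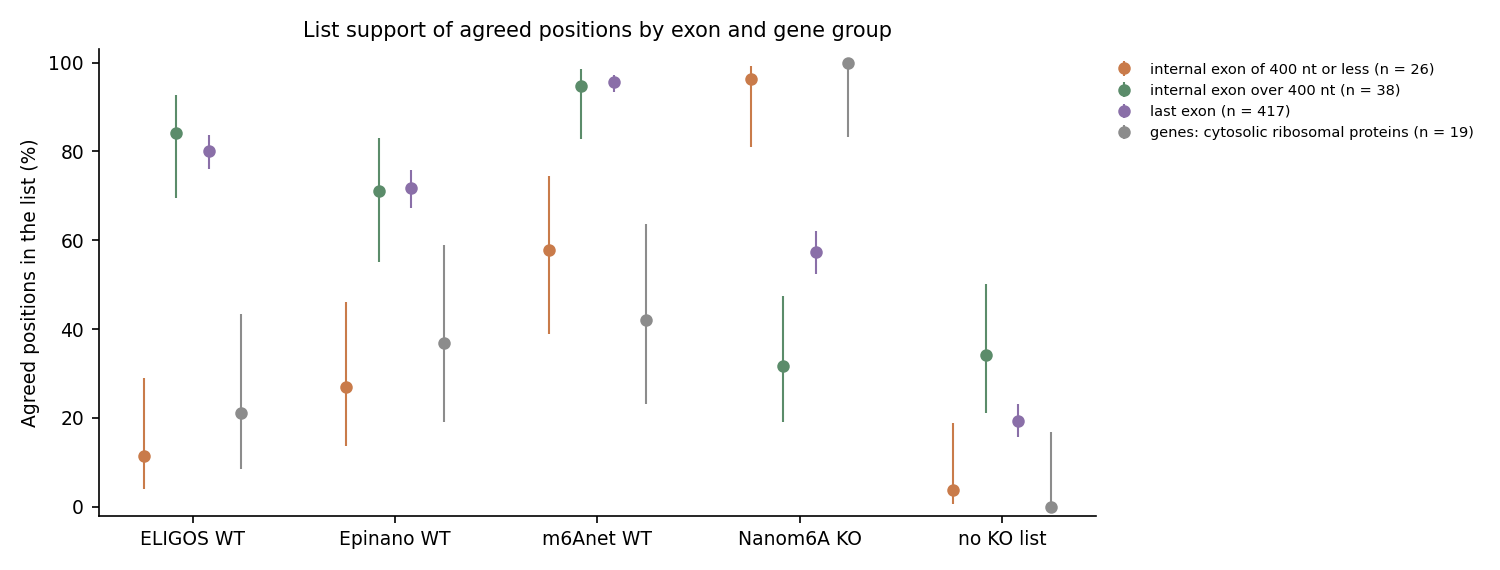
Share of agreed positions (vertical axis, %) held by the ELIGOS, Epinano and m6Anet lists of WT, by the Nanom6A list of KO and by no KO list, for positions in short internal exons, long internal exons, last exons and ribosomal protein genes (coloured points, bars are 95% Wilson intervals). Short internal exons and ribosomal protein genes are low in ELIGOS WT (11.5% and 21.1%) and high in Nanom6A KO (96.2% and 100%), and long internal and last exons are the reverse in ELIGOS WT (84.2% and 80.1%).

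Over all 519 positions, 6 of the 7 lists labelled WT held more than 50% of them, and shares are given beside the share of all 160430 listed positions that the same list held. Of those 160430, 129045 were in a WT or comparison list. The others were in KO lists alone, cannot be agreed positions by the rule, and lower the WT shares of all positions. Nanom6A held 497 (95.8%, against 20.9%), m6Anet 487 (93.8%, against 14.6%) and Tombo 423 (81.5%, against 46.9%). ELIGOS held 403 (77.6%, against 3.72%), Epinano 364 (70.1%, against 27.8%) and xPore 298 (57.4%, against 3.35%). MINES held 113 (21.8%, against 8.36%), the smallest share, although 95.6% of the positions had a 5-mer it reports. xPore has a WT and a KO list but fits both conditions together, so its lists are not calls from 1 library. The same reads made these lists and the comparison lists, so an overlap is no independent support.

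The order of agreement was clearest for ELIGOS. Its WT list held 77.6% (73.9 to 81.0) of the positions in 3 comparison lists, 65.1% (61.9 to 68.1) of those in 2 and 29.3% (27.2 to 31.5) of those in 1. The m6Anet shares were 93.8%, 84.6% and 74.3%. Epinano, Tombo and xPore held similar shares at 3 and 2 lists and lower shares at 1, with 57.4%, 56.2% and 42.2% for xPore. MINES held fewer at 3 lists than at 2, 21.8% (18.4 to 25.5) against 28.0% (25.2 to 31). The classes are mixtures: among positions in 2 lists the MINES share was 32.9% for DiffErr with DRUMMER and 17.3% for Nanocompore with DiffErr, and among those in 1 list the ELIGOS share was 24% for Nanocompore, 43.9% for DiffErr and 44.5% for DRUMMER.

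**Figure D4:**
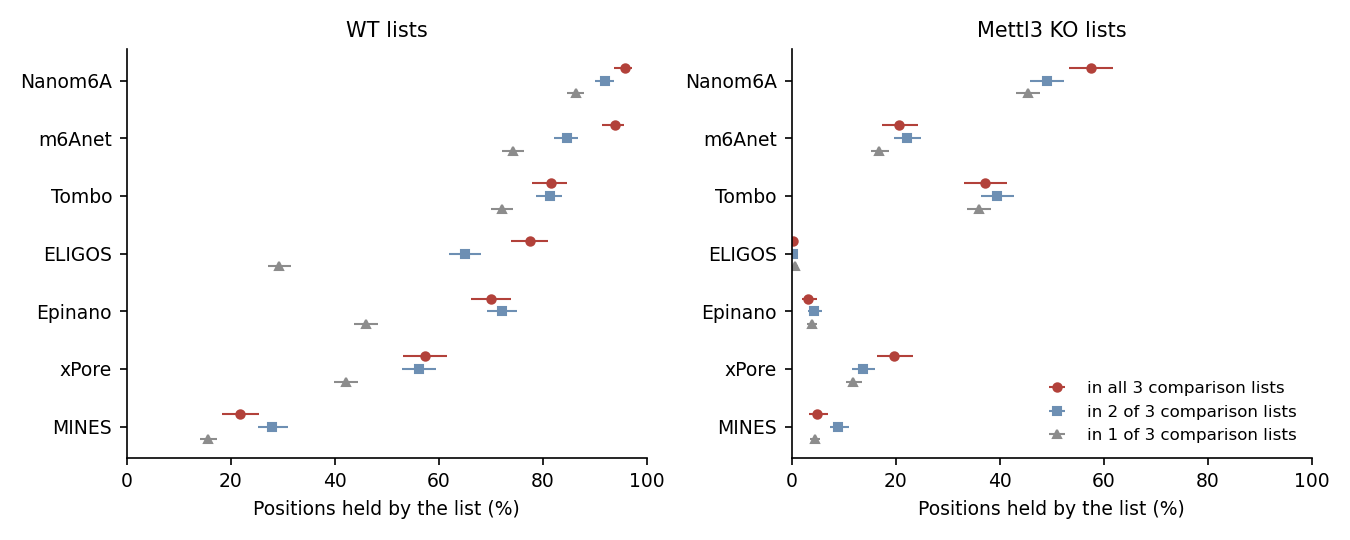
Share of positions held by each list labelled by condition (horizontal axis, %) in WT (left) and Mettl3 KO (right), for positions in all 3 (circles), exactly 2 (squares) and exactly 1 (triangles) of the comparison lists, with 95% Wilson intervals. In WT, ELIGOS separates the 3 classes most (77.6%, 65.1% and 29.3%), and in KO, Nanom6A and Tombo hold the largest shares of agreed positions (57.6% and 37.2%).

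KO lists held many agreed positions too. Nanom6A listed 299 in KO (57.6%, against 17.4% of all listed positions), Tombo 193 (37.2%, against 42.4%), m6Anet 107 (20.6%, against 8.49%) and xPore 102 (19.7%, against 1.49%). MINES listed 25 (4.82%, against 5.88%), Epinano 16 (3.08%, against 9.42%) and ELIGOS 1 (0.193%, against 0.965%), in P4hb, a protein disulfide isomerase. Tombo and Epinano thus held a smaller share of agreed positions in KO than of all positions, and Nanom6A, m6Anet and xPore a larger one. Positions in KO lists alone are among all positions and cannot be agreed, so the 2 shares are not on a like base. Of positions in exactly 2 and exactly 1 comparison list, Tombo held 39.5% and 36.1% in KO, and Epinano 4.34% and 3.83%. For MINES (3.28 to 7.01) and ELIGOS (0.034 to 1.08) the share of all positions was within the interval.

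In total 417 positions (80.3%) were in at least 1 KO list and 102 (19.7%, 16.5 to 23.3) in none. At least 1 KO list held 67.1% of all listed positions, a share raised by positions in KO lists alone. It held 78.6% of those in exactly 2 comparison lists and 74.2% of those in exactly 1. None was in more than 4 KO lists and 85 (16.4%) were in at least 3, against 13.1% of positions in exactly 2 comparison lists and 9.86% in exactly 1. The KO entries depended on the 5-mer. m6Anet listed 47.2% (40.4 to 54.2) of agreed GGACT positions in KO, but 2.38% of GGACA, 5.10% of AGACT and 6.67% of GGACC positions. xPore listed 38.8% (29.7 to 48.7) of AGACT and 6.60% of GGACT positions in KO. Among GGACC positions 30.7% were in no KO list, against 16.2% of GGACT positions.

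On the WT side 62 positions (11.9%) were in all 7 lists, 140 lacked MINES alone, 354 (68.2%) were in at least 5, 12 were in 1 and 1 was in none. Of positions in exactly 2 comparison lists, 11.8% were in all 7 WT lists and 63.4% in at least 5. For those in exactly 1 the shares were 3.88% and 33.2%. The position in no WT list was in Tuba1a, an alpha-tubulin gene whose coding sequence is nearly shared by other tubulin genes, so the assignment of its reads is uncertain. The others named for fewest WT lists, Igfbp2, Tomm7, Rpl27a and Got2 (mitochondrial aspartate aminotransferase), were each held by Nanom6A alone in WT, and Igfbp2 and Rpl27a by Nanom6A in KO as well.

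The 9 positions in all 7 WT lists and in no KO list (first sequence set) covered varied genes and places. Ythdf1 encodes an m6A reader and its position was in a coding exon of 1521 nt, 275 nt before the stop codon. Klf4, a pluripotency factor, had its position 490 nt into an internal exon of 985 nt. Aars has the agreed position farthest downstream. Med7 is a Mediator subunit, Tmed10 carries cargo between endoplasmic reticulum and Golgi, Setd3 methylates actin, Gemin6 belongs to the SMN complex that assembles snRNPs, and Cox7a2l takes part in respiratory supercomplexes. For these 5, the distance to the stop codon ran from 162 nt before to 201 nt after it, all in last exons. Nif3l1 lay 106 nt after it.

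At the other end, 13 positions were in 4 KO lists. The first 5 in genomic order were in Ncl, Pop5 (a subunit of RNases P and MRP), Mlf2, Mfge8 (a secreted glycoprotein that bridges to apoptotic cells) and Eif4ebp1, a repressor of cap-dependent translation. Mfge8 was in all 7 WT lists at the same time. Eif4ebp1 was in 2 WT lists and 4 KO lists, and lay 5 nt before the stop codon and 24 nt from a junction. Positions in no KO list were within 200 nt of the stop codon at 55.9% (46.2 to 65.1), close to the 59.3% (54.5 to 64.0) of those in at least 1.

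Most genes had 1 agreed position. There were 292 with 1, 59 with 2, 30 with 3, and Rsl1d1, Epop and Msh6 had 4, 7 and 8. The 92 genes with at least 2 held 227 positions.

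Msh6, a DNA mismatch repair gene, carried its 8 positions in exon 4, of 2536 nt. That exon has 45 RRACH positions, of which 20 were in at least 1 comparison list. Its other exons have 20 RRACH positions, of which 2 were in a comparison list and 0 agreed (a count of 0 of 20 allows up to 15.0%). WT support was 5 lists at 6 of the 8 positions, 4 at 1 and 2 at the last, 35 nt before the end of the exon. Nanom6A listed none of them in WT, although it listed 95.8% of all agreed positions. KO support was 0 or 1 list throughout.

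Epop, also called Elongin BC and Polycomb repressive complex 2 associated protein, is a single-exon gene expressed in stem cells. Of its 32 RRACH positions 15 were in at least 1 comparison list and 7 agreed, from 665 nt before to 353 nt after the stop codon. All 7 were in 2 or 3 KO lists, and Nanom6A listed each of them in both conditions, unlike those of Msh6. Of the 7, 3 lay within 25 nt of each other in the 3′ UTR and their windows overlap, which is why they are shown.
Epop, chr11:97627846, minus strand: aaagaaagGGACAgagggacg
Epop, chr11:97627834, minus strand: agagggacGGACCttggtgat
Epop, chr11:97627821, minus strand: ttggtgatGGACAaaccggtt

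The first and last of these 3 were in all 7 WT lists and the middle one was in 4. Whether signals this close can be told apart was not tested.

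**Figure D5:**
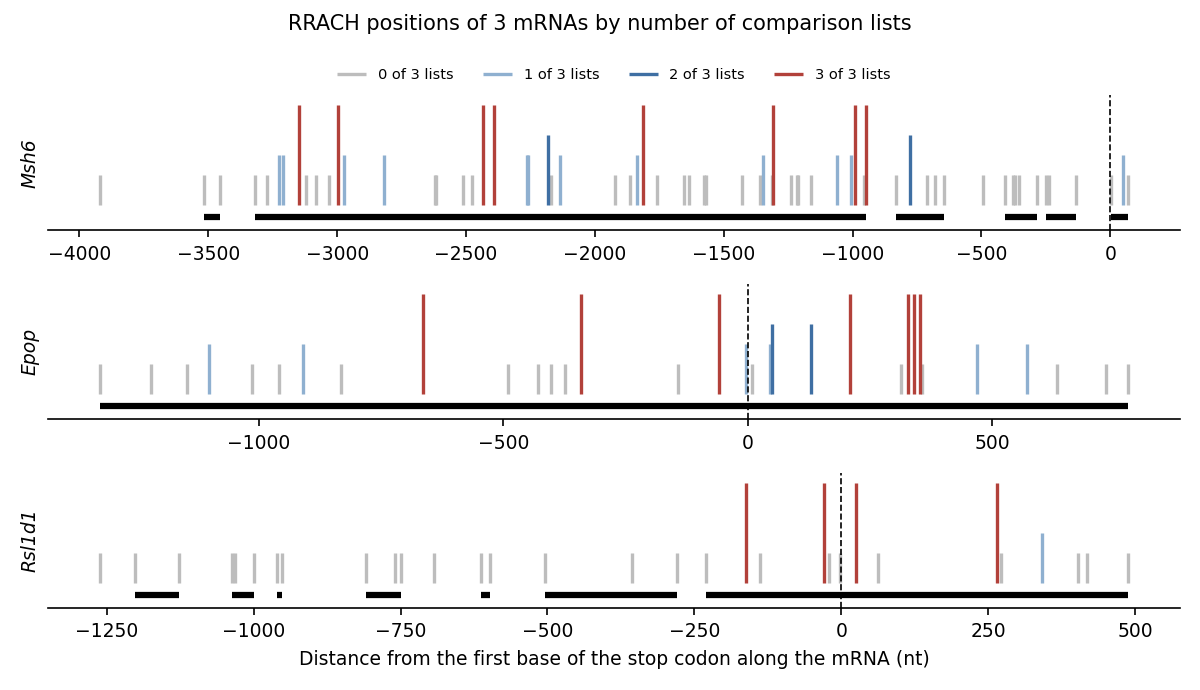
RRACH positions of Msh6, Epop and Rsl1d1 by distance from the stop codon along the mRNA (horizontal axis, nt), coloured and scaled by the number of comparison lists that held them; black bars run from the first to the last RRACH position of each exon. The 8 agreed positions of Msh6 are all in its long exon 4, the 7 of Epop lie on both sides of the stop codon, and the 4 of Rsl1d1 are all in its last exon.

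Rsl1d1, a nucleolar protein of ribosome assembly, had its 4 positions in the last exon, 162 and 29 nt before and 25 and 264 nt after the stop codon. That exon has 14 RRACH positions. The 17 RRACH positions of the other exons were in none of the comparison lists (0 of 17, which allows up to 17.6%). The glucose transporters Slc2a3 and Slc2a1 had 3 each, all in the last exon. Those of Slc2a1 lay 406, 483 and 682 nt into the 3′ UTR, and those of Slc2a3 from 101 nt before to 220 nt after the stop codon.

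Hsp90aa1, a cytosolic chaperone, had 3 positions, all in short internal exons of 166 and 269 nt and each listed by Nanom6A in both conditions. Eef2, which moves the ribosome along the mRNA, had 3 of different kinds. That in exon 3 was in 2 WT lists, that 20 nt before the stop codon in 1 and that 180 nt after it in all 7. Ncl also mixed an internal position with 2 in its 3′ UTR. Cand1, an exchange factor of cullin ligases, had 2 positions in an internal exon of 1494 nt and 1 that was 8 nt before the stop codon. Polr2m had 1 in an internal exon of 639 nt and 2 in its last exon.

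Neighbouring positions on the same listed transcript formed 133 pairs (2 further pairs of neighbours, in Mkrn1 and Ube2l3, were listed on different transcripts and have no distance here) with a median distance of 199 nt, and 28 pairs were within 50 nt. The closest were in Rpp25, a subunit of RNase P, with 5 nt between them, Dnaja2 (an Hsp40 co-chaperone) with 8, Uba2 (SUMO-activating enzyme) with 10, and Epop with 12 and 13. In Rpp25 the upstream position was in all 7 WT and 3 KO lists and the downstream one in 5 and 0. The longest distance was 2166 nt, in Eef2.

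By gene group, 4.02% of the 9553 genes with a position in any WT or comparison list had an agreed one. The share rose with the number of listed positions, from 1.71% of genes with 5 to 9 to 18.8% of genes with 40 or more, and genes with an agreed position had a median of 19 listed positions against 11. Expression was not measured here and group shares are not adjusted for it. Each group is a list of gene symbols or symbol stems, and its count covers the genes on that list rather than every gene of the class.

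Of the core pluripotency factors 6 of 20 listed genes had agreed positions (30.0%), namely Klf2 with 2 and Klf4, Pou5f1, Sox2, Utf1 and Zfp42 with 1 each. Their sequences show where in these regulators the tools met.
Pou5f1, coding, chr17:35506327, plus strand: ctcaggttGGACTgggcctag
Sox2, coding, chr3:34651236, plus strand: gacctccgGGACAtgatcagc
Zfp42, coding, chr8:43296273, minus strand: tagccccgAGACTgaggaaga
Utf1, coding, chr7:139944977, plus strand: atccttggGGACTtgcgccaa
Klf2, coding, chr8:72319652, plus strand: cccgacctGGACCcgcctcag
Klf2, 3′ UTR, chr8:72321009, plus strand: tatttattGGACCttaggaca

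Of these 7 positions, counting that of Klf4 in the first set, 6 were in coding sequence. Those of Sox2, Utf1 and Klf4 were in no KO list, while those of Zfp42 and the coding one of Klf2 were in 3. Nanog, Esrrb, Tdgf1 and Dppa5a had 2, 1, 1 and 1 positions in comparison lists but no agreed one. Kruppel-like factors as a family had 3 of 12, with Klf9 as the third member.

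Signals that act in early embryos were represented by Nodal with 2 positions, Lefty2, an antagonist of Nodal, and Tgif1, a repressor of its targets, or 3 of 34 genes of Wnt, Nodal, BMP and LIF signalling. Among Polycomb genes Epop was the only 1 of 27, among DNA methylation genes Mbd3 the only 1 of 9, among histone methyltransferases and demethylases Kdm5b 1 of 26 and among writers, readers and erasers of m6A Ythdf1 1 of 21. No agreed position was in the 17 SWI/SNF genes or in the 7 genes of the Myc and Max network, where counts of 0 of 17 and 0 of 7 allow shares of up to 17.6% and 42.9%, above the 4.02% of all genes.

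Heat shock proteins and chaperones had 11 of 28 genes (39.3%) and 16 positions, with 2 each in Dnaja2, Hspa8 and Hspd1. Glycolysis had 5 of 17 (29.4%), Hk1, Gpi1, Tpi1, Gapdh and Pkm. Cytosolic ribosomal proteins had 18 of 84 (21.4%) and 19 positions, of which Rpl41 had 2. Aminoacyl-tRNA synthetases had 2 of 20 (Aars and Yars), proteasome subunits 3 of 37 (Psmd7 with 3 positions, Psma4 and Psmb1) and respiratory chain subunits 5 of 88 (Cox6a1, Cox7a2l, Cox8a, Atp5o and Uqcrfs1).

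The ribosomal protein positions differed from the rest in place and support. Of the 19, 9 were in internal exons of at most 400 nt, against 26 of all 519. ELIGOS listed 4 of them in WT (21.1%, 8.51 to 43.3), Nanom6A listed all 19 in KO, and 0 of 19 were outside every KO list, which allows up to 15.8%. The median was 2 WT lists and 2 KO lists, against 5 and 1 over all agreed positions. Ribosomal protein genes have many processed copies in the genome. The positions in Rpl10l, Rpl36al and the processed pseudogene Rps4l, all counted here, are uncertain in particular. Near-identical genes may share their reads, which was not tested.

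Among regulators of protein turnover and the cell cycle, genes with the ubiquitin enzyme stems Ube2, Trim, Rnf, Fbxo and Fbxl had 8 of 137 (5.84%), with 3 positions each in Fbxo5 and Ube2l3. Ccnf, cyclin F, had 3 and was the only 1 of 32 cell cycle regulators. Zinc finger genes of the Zfp class had 2 of 184 (1.09%), Zfp57, which protects imprints, and Zfp42. Helicases of the DEAD and DEAH class had 2 of 45 (Ddx5 and Ddx19a), SR and hnRNP proteins 1 of 31 (Hnrnpa1) and mRNA decay factors 1 of 27 (Cnot8).

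A few genes were listed widely by the comparison tools with few agreed positions. Eef1a1, the elongation factor that delivers aminoacyl-tRNA, had 23 of its 24 RRACH positions in at least 1 comparison list, 18 of them in Nanocompore, 16 in DiffErr and 4 in DRUMMER, and 3 agreed. All 24 were also in KO lists. The mitochondrial mt-Co1 had 13 in comparison lists and 0 agreed. Msh6, by contrast, had 22 in comparison lists and 8 agreed.

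The 4 agreed positions off coding transcripts, or with no annotated stop codon, were in the lincRNA 1810058I24Rik, the pseudogenes Rps4l and 6820431F20Rik, and mt-Co3. A further 6 positions, in Asnsd1, Ube2v1, Aars, Eef1a1, Rpl36al and 1810009A15Rik, lay in exons of more than 1 gene, and their gene is that of the listed transcript. The lincRNA position was in 6 WT lists and 1 KO list. The mt-Co3 position, the only mitochondrial one, was in the Nanom6A list of WT and in 2 KO lists.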

How the data were processed

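Poly(A) RNA of 1 WT and 1 Mettl3 KO mESC culture was sequenced by nanopore direct RNA sequencing. The authors basecalled the reads with Guppy, aligned them to a transcriptome built from GENCODE VM18 with Minimap2, ran each tool, kept RRACH sites over a minimum read number, and converted transcript to genome positions (mm10, that is GRCm38). The study chose cut-offs by F1 score, but the sizes of the deposited lists lie partly outside the range of site numbers it gives for them, so the cut-offs behind these lists are unknown. The deposited lists hold position, strand and transcript. There are 7 tools with a WT and a KO list each, and 3 with 1 comparison list.

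Positions were intersected by chromosome, base and strand and placed on the listed transcript. The GENCODE annotation used for this was of the same build but of a later release than that of the authors. Sequences were read from the GRCm38 reference genome, which is C57BL/6 while the cells were 129. Stop codon distance counts from the first base of the stop codon, and junction distance to the nearest exon junction, both along the mRNA. The background is every RRACH position of the transcripts with an agreed position. Placement was tested on simulated positions. Python 3.11.15, pandas 2.3.3, scipy 1.17.1 and pysam 0.24.0 were used, with Wilson intervals and no test.

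The members and gene lists were chosen with earlier results of these data known. Named genes were the 10 with most agreed positions (ties by listed positions, then genomic order), all positions in 7 WT and no KO lists, 5 each at the ends of KO and WT support, those in 5′ UTRs, the 5 nearest a junction, farthest from the stop codon or closest together, up to 6 per gene list, and Mettl3. Alternatives were exact against near matches, 2 of the 3 lists, other windows, transcripts and backgrounds, and 1 position per gene.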

Additional observations from a re-analysis of the deposited data

How the results depend on the processing

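The number of agreed positions depended on which lists had to agree. It was 519 with all 3, 1117 without Nanocompore, 803 without DRUMMER and 559 without DiffErr, and 520 when a match within 5 bp was enough. Around the stop codon, 39.2% of positions were within 100 nt and 76.7% within 400 nt, and the share near a junction was 4.92% within 50 nt, 40.2% within 200 nt and 51.6% for internal exons only, an alternative chosen after seeing the data. The backgrounds moved with the windows too, to 10% and 33.3% at the stop codon and 29.9%, 50.7% and 90.1% at junctions. Taking only the RRACH positions of the same exons, also chosen after seeing the data, lowered the junction background from 42.3% to 10.8%, and the direction of that comparison turned. With this background the comparisons of 3′ UTR and coding shares, of last and internal exons and of internal exon length turned too. The comparison at the stop codon did not. The values without GGACT and without Msh6 were chosen after seeing the data as well. Without GGACT, the m6Anet KO share fell from 20.6% to 4.35%. No paired analysis was possible because each condition had 1 library. No list gives depth, so a missing position cannot be told from one with too few reads.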
